A study of Mus musculus with 32 samples.

Results

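Epididymal white adipose tissue (eWAT), the visceral fat pad that lies along the epididymis, was compared with inguinal white adipose tissue (iWAT), the subcutaneous pad of the groin, in male *Gpr146* wild-type (WT) mice. The samples were chosen by their labels alone, as the arrays of eWAT and of iWAT with a WT genotype, which are 8 of the 32 arrays of the series, 4 per depot. The series also holds liver and brown fat, and *Gpr146* knockout (KO) mice, and was made to find out how loss of GPR146, an orphan G protein-coupled receptor, affects obesity and fatty liver. All mice used here were 20 weeks old, had been fed a high fat diet (HFD) for 3 months and were fasted overnight before collection. WT and KO mice came from breeding of heterozygous parents, and the KO mice lack the gene in the whole body. Every value below therefore describes fat of HFD-fed, fasted males. RNA came from whole pieces of fat, in which fewer cells of a type and less RNA per cell cannot be told apart. The labels give each mouse a number, and eWAT and iWAT of mouse 1 to mouse 4 are taken as pads of the same animal.

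White fat depots differ in their developmental origin and in the cells they hold. Visceral pads such as eWAT are covered by mesothelium, an epithelium-like sheet that lines the body cavity and expresses the transcription factor WT1, whereas iWAT lies under the skin without such a cover. HOX and T-box transcription factors record position along the embryo, and adult fat cells and their progenitors keep depot-specific sets of them. During HFD feeding, macrophages gather around dying adipocytes in visceral fat and take up their lipid, and such lipid-associated macrophages express the lipid receptor TREM2, lysosomal hydrolases and subunits of the lysosomal proton pump. iWAT can form beige adipocytes, which dissipate energy through the uncoupling protein UCP1, and the pad encloses the inguinal lymph node.

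Each array gave 1 value per gene on a log2 scale, for 24646 genes. The depots were deposited as separate tables with different scales. Array medians were 3.14 to 3.18 in eWAT and 3.65 to 3.70 in iWAT, so the 8 arrays were quantile normalized together. Depot and table cannot be told apart as the source of any shift that all genes share, or of an effect of the processing on single genes. All levels below are log2 values after this step, and a difference is the eWAT mean minus the iWAT mean. Precision is limited by having 4 arrays per depot. Fat identity was clear in both depots, since 26 genes of the mature adipocyte had a median rank at the 97.2th percentile of all genes in eWAT and at the 98.5th in iWAT. At an adjusted p below 0.05 (limma, Benjamini-Hochberg over all genes), 9321 genes differed, 37.8% of those tested. Of these, 4666 were higher in eWAT (18.9%) and 4655 in iWAT (18.9%), and 11817 genes had an unadjusted p below 0.05. Counts of called list members below stand beside these shares of all genes. The balance of directions follows from the normalization, which gives all arrays the same distribution. With only the array medians made equal, 11825 genes were higher in eWAT and 2480 in iWAT, and with the values as deposited 2392 and 12409. Most called differences were small, with a median size of 0.49, but 1115 exceeded 1 on the log2 scale, 728 of them higher in eWAT and 387 in iWAT. The 4 eWAT values lay all above or all below the 4 iWAT values for 38.1% of genes.

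**Figure D1:**
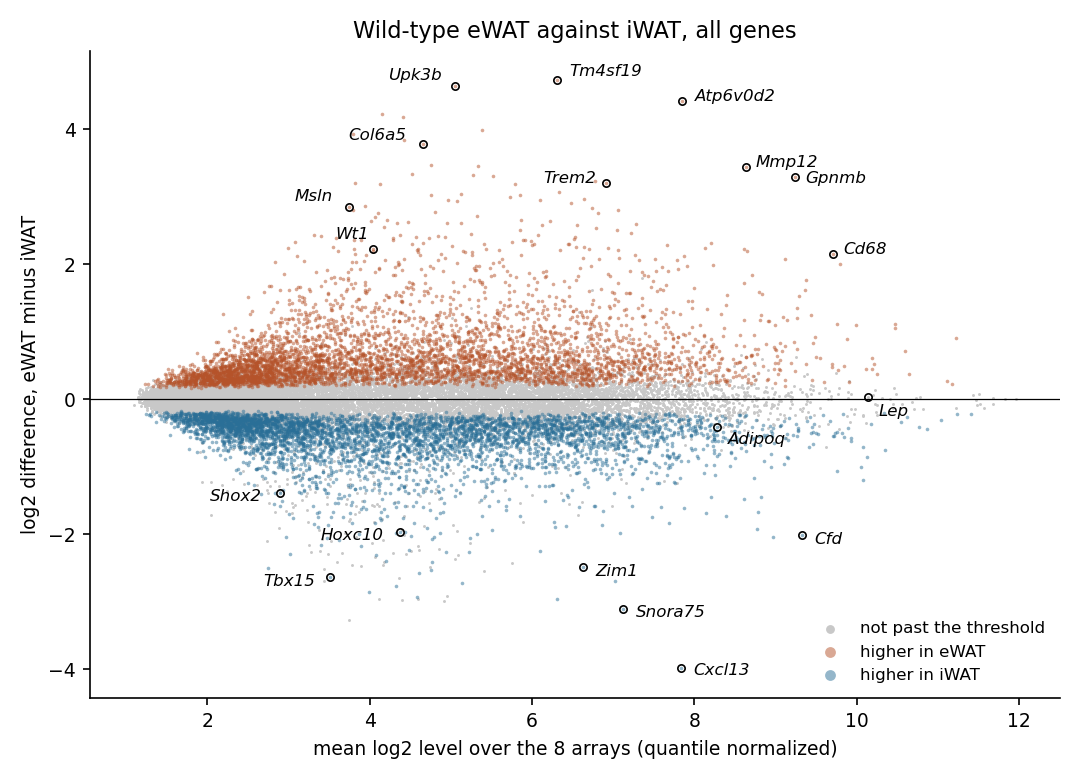
Difference between wild-type eWAT and iWAT (log2, vertical axis) against the mean log2 level over the 8 arrays (horizontal axis), 1 point per gene, with genes past an adjusted p of 0.05 coloured by direction. Large differences toward eWAT reach 4.73 for *Tm4sf19* and include genes of high level such as *Gpnmb* and *Cd68*, while *Cxcl13* with -3.98 lies farthest toward iWAT and *Lep* lies near 0.

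The iWAT arrays of mouse 1 and mouse 2 stood apart from the other 6 arrays. The mean log2 level of 16 measured B cell genes was 7.54 and 7.51 on these arrays, against 3.37 and 3.06 in iWAT of mice 3 and 4 and 3.12 to 3.19 in eWAT. *Cd79a*, a signalling chain of the B cell receptor, measured 9.10, 8.89, 4.03 and 3.62 in iWAT of mice 1 to 4. The T cell list (19 genes) had means of 6.42 and 6.73 on these 2 arrays, 3.80 and 3.49 on the other iWAT arrays and 3.45 to 3.68 in eWAT. Genes of lymph node stroma and vessels (10 genes) had means of 5.99 and 6.12, against 4.15 and 3.95 on the other iWAT arrays and 3.45 to 3.79 in eWAT. *Glycam1*, a mucin-like ligand made by the high endothelial venules of lymph nodes, measured 7.13 and 6.57 against 2.83 and 2.71 in iWAT and 3.19 to 3.32 in eWAT. The iWAT arrays of mice 1 and 2 carry lymph node genes at a level that no other wild-type array of either fat depot shows. The spread they add to iWAT left 0 of the 16 B cell genes past the threshold, although the median difference of the list was -2.23. How lymph node RNA came to be on these arrays was not tested. Every result that follows was also computed without the iWAT arrays of mice 1 and 2, which leaves 4 eWAT and 2 iWAT arrays. Of the 9321 genes, 7081 (76.0%) remained past the threshold without them and 0 changed sign among those called both times, and 8778 genes were called in all (35.6% of those tested), 4087 higher in eWAT (16.6%) and 4691 in iWAT (19.0%).

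**Figure D2:**
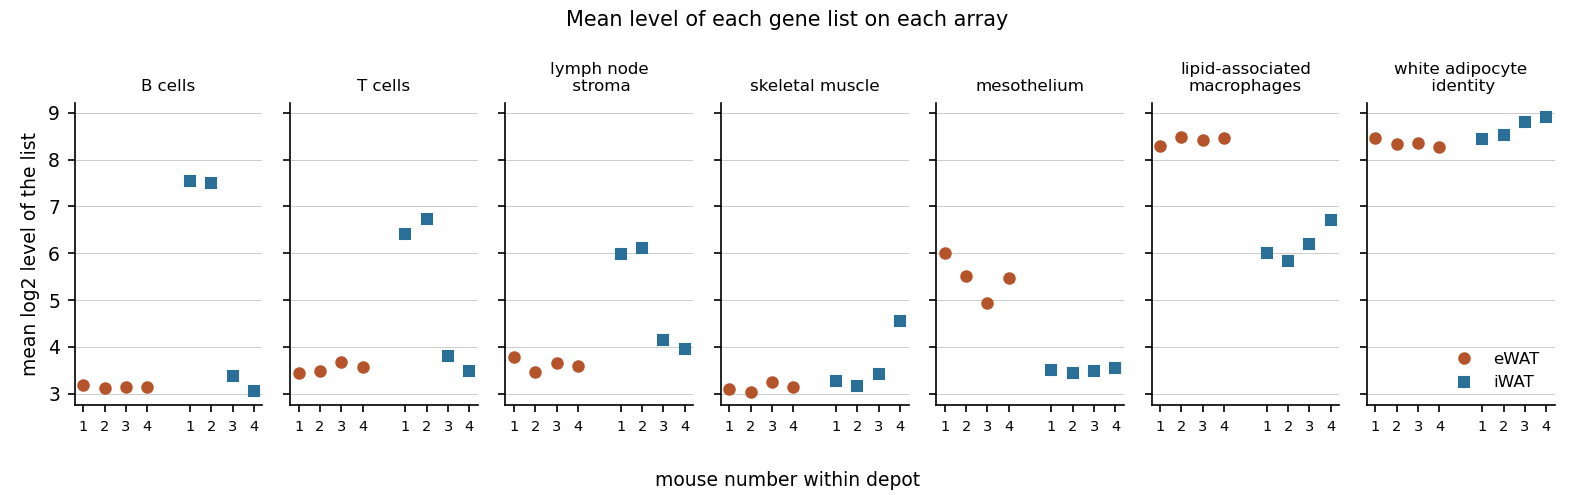
Mean log2 level of 7 gene lists on each wild-type array (vertical axis), with the mouse number within each depot on the horizontal axis, circles for eWAT and squares for iWAT. iWAT of mice 1 and 2 reaches 7.54 and 7.51 for B cells, and iWAT of mouse 4 reaches 4.56 for skeletal muscle. The mesothelium, lipid-associated macrophage and lymph node stroma lists separate the depots with no overlap.

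Mesothelial genes were higher in eWAT almost throughout. Of 18 measured markers of mesothelium, 16 were higher in eWAT and 0 in iWAT (18.9% of all genes were called in each direction), with a median difference of 1.81, against -0.01 for all genes. The largest was *Upk3b*, a uroplakin made by mesothelial and bladder surface cells, which measured 8.22, 7.45, 6.56 and 7.26 in eWAT of mice 1 to 4 and 2.67, 2.63, 2.83 and 2.81 in iWAT. All iWAT values were low and close together, whereas the eWAT values spread over more than 1 log2 unit. The difference was 4.63 (standard error 0.29, adjusted p = 1.92e-05), or 24.8-fold. *Upk1b*, its tetraspanin partner, differed by 4.18 (5.80e-05), *Pkhd1l1*, a large membrane protein, by 3.94 (7.20e-05) and *Gpm6a*, a membrane glycoprotein, by 3.48 (0.000229). *Msln*, which encodes mesothelin, the surface protein that gives its name to the tissue, measured 5.90, 5.10, 4.56 and 5.13 in eWAT and 2.32, 2.38, 2.33 and 2.26 in iWAT, a difference of 2.85 (adjusted p = 6.40e-05). The mean of the list was 6.02 in eWAT of mouse 1, 5.52 in mouse 2, 4.93 in mouse 3 and 5.47 in mouse 4, and between 3.44 and 3.54 in iWAT. Mouse 1 was highest and mouse 3 lowest also for *Upk3b*, *Upk1b*, *Msln*, *Pkhd1l1* and *Gpm6a*. Without the iWAT arrays of mice 1 and 2 the count was 16 in eWAT and 1 in iWAT.

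Transcription factors that mark fat lineages split between the depots. *Wt1*, the zinc finger factor of mesothelium and visceral fat progenitors, measured 5.34, 5.30, 4.83 and 5.16 in eWAT and 2.85, 2.91, 2.81 and 3.15 in iWAT. No value overlapped, and the difference was 2.22 (standard error 0.13, adjusted p = 1.23e-05, 4.67-fold). *Tcf21*, a helix-loop-helix factor of visceral progenitors, measured 4.24, 4.25, 3.91 and 4.26 in eWAT and 1.98, 2.12, 2.06 and 2.03 in iWAT, which is a difference of 2.12 (4.73e-06). *Bnc1*, a zinc finger factor of mesothelium, differed by 1.66 (0.000542). *Osr1*, a zinc finger factor of the intermediate mesoderm, differed by 1.02 (0.0216) with all arrays and by 0.59 (adjusted p = 0.0531, no longer past the threshold) without the iWAT arrays of mice 1 and 2. In the other direction, *Tbx15*, a T-box factor of subcutaneous fat and dermis, measured 2.17, 2.22, 2.28 and 2.1 in eWAT and 4.73, 4.30, 4.97 and 5.32 in iWAT. eWAT was at a uniformly low level, at the 21.3th percentile of all genes, and the difference was -2.64 (standard error 0.19, adjusted p = 3.45e-05), or 6.22-fold higher in iWAT. *Shox2*, a homeobox factor of limb and subcutaneous progenitors, measured 2.28, 2.18, 2.24 and 2.13 in eWAT and 3.17, 3.20, 3.79 and 4.21 in iWAT (difference -1.39, adjusted p = 0.00150). *En1*, a homeobox factor of the dermis lineage, was low in both depots, with 1.99 to 2.36 in eWAT and 2.42 to 2.89 in iWAT, and differed by -0.55 (0.0108). *Twist1*, *Emx2* and *Tbx5*, all developmental transcription factors, differed by -1.11 (0.00470), -1.10 (0.00122) and -1.03 (0.000210). *Nr2f1*, an orphan nuclear receptor, measured 3.05 to 3.37 in eWAT and 3.19 to 3.37 in iWAT and did not pass the test (difference -0.10, adjusted p = 0.357), but reached -0.36 (0.00744) relative to the median gene with array medians made equal. Of 37 such factors, 10 were higher in eWAT, 12 were higher in iWAT and 15 were not called, so the median, -0.10, says little about either group. Of all genes 18.9% were called in each direction.

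Among the 39 HOX genes, 17 were higher in iWAT and 3 in eWAT (18.9% of all genes in each direction), with a median difference of -0.22. HOX genes lie in 4 clusters, and those near the 5′ end of a cluster act at the tail end of the embryo. *Hoxc10* measured 3.44, 3.39, 3.52 and 3.20 in eWAT and 5.0, 5.06, 5.71 and 5.63 in iWAT. Its lowest iWAT value was above its highest eWAT value, and the difference was -1.96 (standard error 0.17, adjusted p = 8.62e-05). *Hoxc9* measured 3.40, 3.40, 3.57 and 3.28 in eWAT and 5.08, 4.34, 5.08 and 5.05 in iWAT (difference -1.48, 0.000316). *Hoxc8*, the next gene of the same cluster, had a smaller difference of -0.69 (0.000445) at a high level in both depots, 7.04 to 7.31 in eWAT and 7.80 to 7.94 in iWAT. *Hoxa9* differed by -1.16 (0.000338) and *Hoxb6* by -0.89 (5.00e-05). *Hoxd8* went the other way, with 4.56 to 4.92 in eWAT and 3.78 to 4.37 in iWAT (difference 0.65, adjusted p = 0.00843). *Hoxa5*, whose gene lies nearer the 3′ end of its cluster, did not pass the test, with 4.64, 4.65, 4.41 and 4.61 in eWAT, 4.54, 4.18, 4.62 and 4.40 in iWAT and a difference of 0.14 (0.323). The count was 19 in iWAT and 3 in eWAT without the iWAT arrays of mice 1 and 2. Relative to the median gene after making the array medians equal, 22 were higher in iWAT and 2 in eWAT, where 23.6% and 24.0% of all genes were called.

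**Figure D3:**
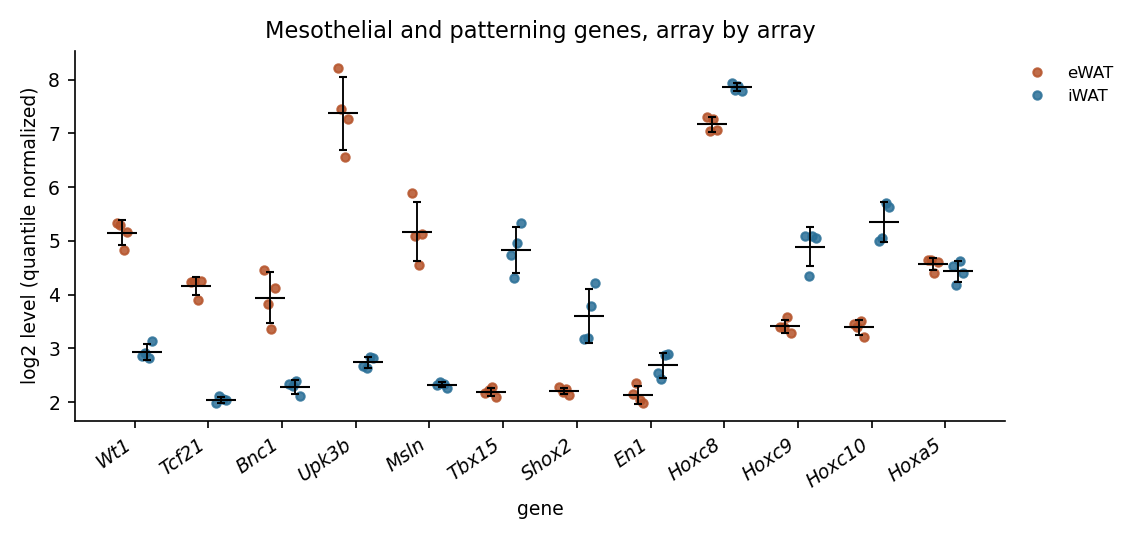
Log2 levels of 12 mesothelial and patterning genes (vertical axis) on each of the 4 eWAT and 4 iWAT arrays, with points for mice and bars for the mean ± SD. *Wt1*, *Tcf21*, *Bnc1*, *Upk3b* and *Msln* lie higher in eWAT, *Tbx15*, *Shox2*, *En1* and the 3 *Hoxc* genes higher in iWAT, and only *Hoxa5* overlaps.

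Genes of lipid-associated macrophages formed the only 1 of the 33 lists in which every member was called. All 19 measured members passed the test, 18 higher in eWAT and 1 in iWAT (18.9% of all genes in each direction), with a median difference of 2.15. *Tm4sf19*, a tetraspan membrane protein of lipid-laden macrophages and osteoclasts, had the largest difference of any gene admitted by the rule for named genes. It measured 8.54, 8.78, 8.68 and 8.68 in eWAT and 3.64, 3.91, 3.67 and 4.55 in iWAT, a difference of 4.73 (standard error 0.19, adjusted p = 3.27e-06, 26.5-fold). *Atp6v0d2*, a subunit of the lysosomal proton pump, measured 10.01, 10.10, 10.08 and 10.04 in eWAT and 5.55, 4.95, 5.21 and 6.87 in iWAT, a difference of 4.41 (5.91e-05). For both genes the eWAT values lay close together, and iWAT of mouse 4 was the highest of its depot. The same array was highest in iWAT for *Mmp12*, the macrophage elastase, with 6.95, 6.20, 6.85 and 7.66 in iWAT and 10.28, 10.42, 10.22 and 10.48 in eWAT (difference 3.44, adjusted p = 4.35e-05). *Gpnmb*, a glycoprotein of lysosome-rich macrophages, measured 10.81, 11.00, 10.87 and 10.90 in eWAT, near the top of the whole array, and 7.25, 6.76, 7.85 and 8.52 in iWAT (difference 3.3, 0.000146). *Trem2*, the lipid receptor, measured 8.57, 8.51, 8.54 and 8.44 in eWAT and 5.13, 4.70, 4.79 and 6.63 in iWAT. It differed by 3.21 (standard error 0.37, adjusted p = 0.000377), or 9.23-fold, and its groups did not overlap. *Itgax*, the integrin known as CD11c, differed by 3.06 (8.71e-06), *Slc37a2*, a sugar phosphate exchanger, by 2.97 (8.26e-06) and *Spp1*, the secreted glycoprotein osteopontin, by 2.15 (0.00235). *Acp5*, a lysosomal acid phosphatase also abundant in osteoclasts, was the exception, with 8.12 to 8.50 in eWAT and 8.54 to 8.96 in iWAT, a difference of -0.39 (0.0333) that became 0.02 (0.902) relative to the median gene with array medians made equal. Without the iWAT arrays of mice 1 and 2 the counts were again 18 and 1, with a median of 1.87. The mean of the list was 6.00, 5.84, 6.19 and 6.72 in iWAT of mice 1 to 4 and 8.29 to 8.48 in eWAT.

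The promoters of 4 list members are shown because these genes were among those that differed together, and because their windows hold a motif of a factor family active in macrophages. The windows are the 250 bases before an annotated start in RefSeq on GRCm38.p6, written 5′ to 3′ on the strand of the gene, with a match in capitals. The motifs searched were TGAGTCA, bound by AP-1 factors, and AGGAAGTG, bound by ETS factors such as PU.1, each on both strands. The letters TGAGTCA were found in *Itgax* (chr7:128129300-128129549, plus strand), *Slc37a2* (chr9:37255739-37255988, minus strand) and 1 of the starts of *Mmp12* (chr9:7347124-7347373, plus strand). AGGAAGTG was found in *Spp1* (chr5:104434861-104435110, plus strand). It was also found, on the strand opposite to the gene, at another start of *Mmp12* (chr9:7344147-7344396), whose window is not shown.
Itgax: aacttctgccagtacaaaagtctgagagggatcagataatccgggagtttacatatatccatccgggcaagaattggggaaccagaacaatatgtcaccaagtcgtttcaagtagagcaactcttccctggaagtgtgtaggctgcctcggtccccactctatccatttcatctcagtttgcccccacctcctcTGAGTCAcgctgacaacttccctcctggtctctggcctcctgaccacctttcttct
Slc37a2: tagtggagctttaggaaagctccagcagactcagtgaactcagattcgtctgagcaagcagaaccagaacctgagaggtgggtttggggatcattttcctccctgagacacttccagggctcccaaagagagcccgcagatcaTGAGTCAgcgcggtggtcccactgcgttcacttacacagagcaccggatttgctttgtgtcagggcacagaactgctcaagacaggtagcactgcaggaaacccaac
Mmp12: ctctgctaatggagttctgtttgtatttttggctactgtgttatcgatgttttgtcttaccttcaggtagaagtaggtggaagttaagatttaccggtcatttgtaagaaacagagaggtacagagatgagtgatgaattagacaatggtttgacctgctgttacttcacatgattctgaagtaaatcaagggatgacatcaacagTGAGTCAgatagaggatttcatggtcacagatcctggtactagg
Spp1: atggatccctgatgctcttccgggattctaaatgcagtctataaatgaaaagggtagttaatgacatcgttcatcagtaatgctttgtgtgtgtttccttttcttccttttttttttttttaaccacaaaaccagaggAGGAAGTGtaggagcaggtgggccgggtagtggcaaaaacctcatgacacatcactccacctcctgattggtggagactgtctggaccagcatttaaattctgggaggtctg
Of 16 list members with a window, 3 held TGAGTCA and 2 held AGGAAGTG, where 5.16% and 3.62% of all genes with a window did. In the mesothelium list 1 of 12 genes with a window held TGAGTCA and 2 held AGGAAGTG, the latter a larger share than in the macrophage list. The windows were chosen with the expression values known, a match is a description of letters and not of a bound site, and no test was made.

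General macrophage genes followed at smaller differences. Of 22 such genes, 15 were higher in eWAT and 0 in iWAT, with a median of 1.01, where 18.9% of all genes were called in each direction. The counts were 11 and 2 without the iWAT arrays of mice 1 and 2, where 16.6% and 19.0% of all genes were called. *Cd68*, an endosomal glycoprotein, measured 10.78, 10.67, 10.90 and 10.76 in eWAT and 8.49, 8.06, 8.70 and 9.28 in iWAT, a difference of 2.15 (standard error 0.22, adjusted p = 0.000198). *Itgam*, the integrin CD11b, measured 7.81, 7.72, 7.81 and 7.80 in eWAT and 6.00, 5.50, 6.77 and 6.52 in iWAT (difference 1.59, 0.00128). *Fcgr3*, an Fc receptor, differed by 2.25 (0.000481) and *C1qb*, a chain of complement C1q, by 1.77 (0.00244). *Emr1*, which encodes F4/80, had a wide spread in iWAT, with 6.23, 5.61, 8.47 and 7.04 there and 8.65 to 8.99 in eWAT. Its difference was 1.93 (0.0181), and 1.02 (adjusted p = 0.0431) without mice 1 and 2 in iWAT. *Cd68*, *Itgam*, *Emr1* and *C1qb* were lowest in iWAT of mouse 2, which was also rich in lymphocyte genes.

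Inflammatory cytokines and chemokines did not share a direction. Of 28 genes, 6 were higher in eWAT and 6 in iWAT, close to the 18.9% of all genes called in each direction, with a median of 0.09. Without the iWAT arrays of mice 1 and 2 the counts were 7 and 9, with a median of -0.11. *Il1rn*, the antagonist of the interleukin-1 receptor, measured 5.37, 5.87, 5.49 and 5.65 in eWAT and 3.09, 2.93, 3.00 and 3.6 in iWAT (difference 2.44, adjusted p = 2.50e-05). The chemokines *Ccl3* and *Ccl9*, which attract monocytes and macrophages, differed by 2.19 (0.000433) and 1.54 (0.000425). *Ccl2*, the main monocyte attractant of fat, measured 6.82, 7.40, 6.35 and 6.72 in eWAT and 4.71, 5.22, 6.01 and 6.39 in iWAT, so that the groups touched. It differed by 1.24 (0.0260) with all arrays and by 0.64 (0.0867) without the iWAT arrays of mice 1 and 2. *Cxcl9*, an interferon-gamma-induced chemokine for T cells, was higher in iWAT on every array, with 9.18, 9.18, 9.13 and 9.54 against 7.39, 7.41, 7.61 and 7.74 in eWAT. The difference of -1.72 (standard error 0.12, adjusted p = 2.89e-05) was -1.83 without the lymph node arrays. *Cxcl10*, from the same family, differed by -0.84 (0.00633). Genes of MHC class II presentation (13) gave 1 call in each direction, with a median of -0.39. Their mean was 7.78 and 7.68 in iWAT of mice 1 and 2, against 6.56 and 5.80 in mice 3 and 4. Without the former 2 arrays 3 were called toward eWAT and 1 toward iWAT, and the median turned to 0.19. Of 16 acute-phase and host defence genes, 6 were higher in eWAT and 1 in iWAT, where 18.9% of all genes were called in each direction. The largest of these were *Orm2*, an acute-phase glycoprotein, with 1.93 (0.000270), and *Saa3*, the serum amyloid A made in fat, with 1.58 (0.00338).

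**Figure D4:**
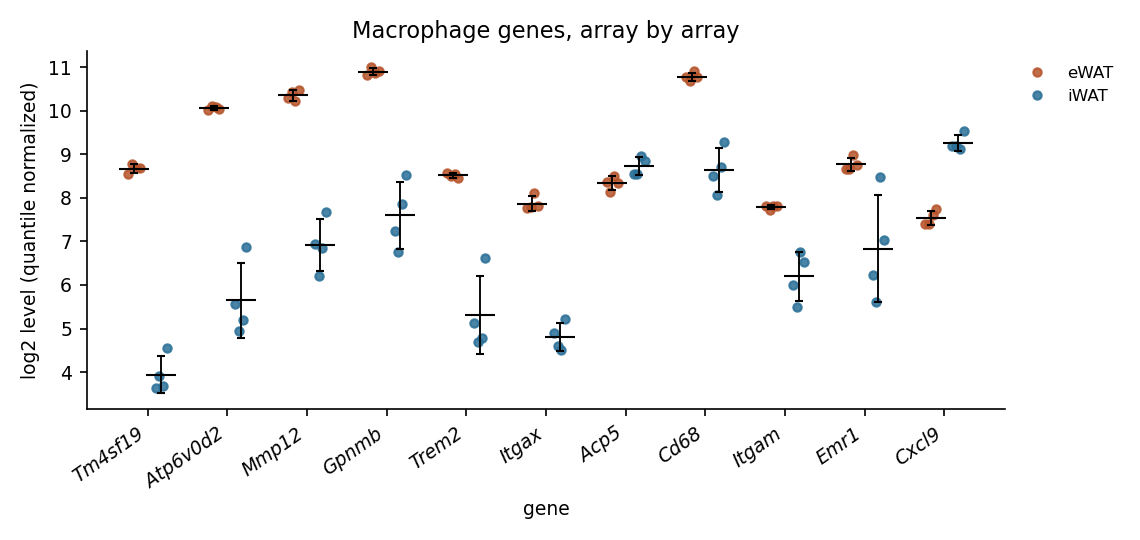
Log2 levels of 11 macrophage-related genes (vertical axis) on each of the 4 eWAT and 4 iWAT arrays, with points for mice and bars for the mean ± SD. The eWAT values lie within a narrow band and above iWAT for *Tm4sf19* to *Itgax* and for *Cd68*, *Itgam* and *Emr1*, whereas *Acp5* and *Cxcl9* lie higher in iWAT.

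Lymphoid genes were among those with the largest differences toward iWAT. *Cxcl13*, the chemokine that draws B cells into follicles, measured 6.90, 4.70, 6.63 and 5.14 in eWAT and 10.42, 10.37, 9.56 and 8.96 in iWAT. The difference of -3.98 (standard error 0.54, adjusted p = 0.000745) was -3.49 (0.00312) without the lymph node arrays, so *Cxcl13* was high in iWAT of mice 3 and 4 too, where the B cell list had means of 3.37 and 3.06. The lymphoid genes named next depended on those arrays for their size. *Cd8b1*, a chain of the CD8 co-receptor, differed by -2.93 (0.0345) and by -1.08 (0.0343) without them, *Dnase1l3*, a secreted nuclease of dendritic cells, by -2.86 (0.00917) and -1.50, and *Ly6d*, a surface protein of B cell precursors, by -2.72 (adjusted p = 0.04996) and -0.75. The call of *Ly6d* was lost with the mouse number as a block (0.0510). *Ms4a4c*, a membrane protein of lymphoid and myeloid cells, and *Pydc4*, an interferon-induced gene, differed by -2.40 (0.0348) and -2.29 (0.0172), and by -0.85 and -1.0 without them. Within the T cell list 3 of 19 genes were called, all toward iWAT, where 18.9% of all genes were called in that direction. They were *Cd8b1*, *Cd4* and *Foxp3*, the factor of regulatory T cells. Without the lymph node arrays 6 of the list were called toward iWAT and 2 toward eWAT (19.0% and 16.6% of all genes). The median was then -0.18, against -1.94 with all arrays. Relative to the median gene with array medians made equal the counts were 11 and 1 (23.6% and 24.0% of all genes). The calls of *Cd8b1*, *Ly6d*, *Ms4a4c* and *Foxp3* were each lost on leaving out any of 6 single arrays, with adjusted p up to 0.0846, 0.113, 0.0795 and 0.117. *Cd4* lost its call both with the block (0.0547) and without the lymph node arrays (0.154). In the lymph node stroma list 4 of 10 genes were higher in iWAT and 1 in eWAT, where 18.9% of all genes were called in each direction. The counts were again 4 and 1 without the lymph node arrays, where 19.0% and 16.6% of all genes were called. The median of the list was -1.54 with all arrays and -0.31 without them. Within it, *Fcamr* differed by -1.66 both with all arrays and without them, and *Madcam1* by -1.17 and -0.94. *Grb14*, an adaptor that inhibits insulin receptor signalling, was not tied to those arrays, with 3.31, 3.27, 3.44 and 3.28 in eWAT and 5.51, 5.56, 6.45 and 6.07 in iWAT (difference -2.57, adjusted p = 4.54e-05). The same was true of *Zim1*, an imprinted zinc finger gene, with 4.82, 5.21, 6.30 and 5.2 in eWAT and 7.55, 7.75, 8.22 and 7.98 in iWAT (-2.49, 0.000400).

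Genes of the nerve sheath were also higher in iWAT. Of 9 measured Schwann cell genes, 6 were higher in iWAT and 1 in eWAT (18.9% of all genes in each direction), with a median of -0.62. The mean of the list was 3.38 to 3.47 in eWAT and 4.26, 3.71, 4.34 and 4.51 in iWAT of mice 1 to 4. The array of mouse 2 was the lowest of iWAT and still above every eWAT array. Of 24 skeletal muscle genes, 7 were higher in iWAT and 0 in eWAT, where 18.9% of all genes were called in each direction. *Ttn*, the giant sarcomere protein titin, measured 2.12 to 2.19 in eWAT and 3.57, 3.55, 3.33 and 4.95 in iWAT (-1.70, 0.00327), and *Myl1*, a myosin light chain, differed by -1.09 (0.00111). The mean of the muscle list was 4.56 in iWAT of mouse 4, and between 3.04 and 3.43 on the other 7 arrays.

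Differences of the mature adipocyte were modest beside those of mesothelium and macrophages. Of 26 genes of white adipocyte identity, 12 were higher in iWAT and 2 in eWAT with a median of -0.27, where 18.9% of all genes were called in each direction. Without the iWAT arrays of mice 1 and 2 the counts were 13 and 0, with a median of -0.51. The direction depended on the scaling, since relative to the median gene with array medians made equal 4 were called in each direction and the median was -0.02. There 24.0% of all genes were called toward eWAT and 23.6% toward iWAT. *Lep*, the satiety hormone of fat, measured 10.04, 10.33, 10.13 and 10.11 in eWAT and 9.89, 10.29, 10.06 and 10.25 in iWAT, with wholly overlapping values (difference 0.03, standard error 0.11, adjusted p = 0.847), although it stood at 0.40 (0.0418), higher in eWAT, relative to the median gene with array medians made equal. *Adipoq*, which encodes adiponectin, measured 8.24, 7.87, 8.22 and 7.99 in eWAT and 8.48, 8.20, 8.60 and 8.67 in iWAT. It passed the test at -0.41 (0.0302), with overlapping groups, and was at -0.01 (0.981) under that other scaling. Its call was also lost on leaving out any of 5 single arrays, with adjusted p up to 0.0794. *Cfd*, the complement protease adipsin, differed most, with 9.07, 7.26, 8.55 and 8.40 in eWAT and 10.55, 9.70, 10.55 and 10.53 in iWAT. The difference was -2.01 (standard error 0.36, adjusted p = 0.00304), or 4.04-fold higher in iWAT, and -1.66 (0.00704) under the other scaling. *Plin4*, a lipid droplet coat protein, differed by -1.0 (0.00156) and *Lipe*, hormone-sensitive lipase, by -0.94 (0.000291). The calls toward eWAT were *Lpl*, lipoprotein lipase, with 0.35 (0.0178), and *Cd36*, a fatty acid transporter, with 0.27 (0.0251), and both were lost without the iWAT arrays of mice 1 and 2 (0.0978 and 0.127). *Gpr146* itself measured 5.41, 5.87, 5.61 and 6.10 in eWAT and 5.26, 5.47, 6.62 and 6.31 in iWAT. It did not differ past the threshold (-0.16, standard error 0.30, adjusted p = 0.694), but without the lymph node arrays, which held its lowest iWAT values, it was at -0.73 (0.0186).

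Secreted adipocyte hormones went both ways, with 4 of 19 higher in eWAT and 6 in iWAT, where 18.9% of all genes were called in each direction. Without the iWAT arrays of mice 1 and 2 the counts were 4 and 8, with a median of -0.23 against 0.02 with all arrays. *Metrnl*, a secreted meteorin-like protein, measured 6.04, 6.27, 6.12 and 6.10 in eWAT and 3.91, 3.71, 4.94 and 4.85 in iWAT (difference 1.78, adjusted p = 0.00129). *Agt*, angiotensinogen, differed by 1.66 (0.000933). *Nrg4*, a ligand of ErbB4 receptors, differed by -1.17 (0.00234) and *Nnat*, the imprinted neuronatin of adipocytes, by -1.01 (0.00118). Fatty acid synthesis had 3 of 18 genes higher in eWAT and 2 in iWAT (18.9% of all genes in each direction) with a median of 0.12. Relative to the median gene with array medians made equal the counts were 7 and 1, with a median of 0.40. There 24.0% of all genes were called toward eWAT and 23.6% toward iWAT. *Fasn*, fatty acid synthase, varied widely between mice, with 7.98, 7.23, 7.85 and 6.48 in eWAT and 7.22, 6.90, 7.59 and 6.98 in iWAT, and did not pass the test (0.21, standard error 0.32, adjusted p = 0.622). *Elovl6*, a fatty acid elongase, differed by 0.85 (0.00236), and *Mlxipl*, which encodes the glucose-responsive factor ChREBP, by -0.96 (0.0229).

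Of 24 genes of brown and beige fat, 10 were higher in iWAT and 5 in eWAT, where 18.9% of all genes were called in each direction. The median was -0.19, and the median rank lay at the 47.8th percentile of all genes in eWAT and the 49.9th in iWAT. Without the iWAT arrays of mice 1 and 2 the counts were 8 and 3. The largest difference was that of *Epsti1*, with -1.88 (0.0327), which lost its call without those arrays (-0.76, 0.0566). *Ucp1* measured 2.78, 3.28, 2.79 and 2.85 in eWAT and 4.71, 3.39, 4.70 and 3.43 in iWAT. The groups did not overlap, but iWAT of mice 2 and 4 lay just above the highest eWAT value, and the difference was -1.13 (standard error 0.33, adjusted p = 0.0247). This call was lost on leaving out any of 5 of the 8 arrays, with adjusted p up to 0.0617 and differences from -1.36 to -0.92. *Cidea*, a lipid droplet protein of brown and beige cells, measured 3.65, 3.70, 3.56 and 3.24 in eWAT and 5.23, 4.93, 5.98 and 5.01 in iWAT (-1.75, 0.000553). *Tbx1*, a T-box factor of beige fat, differed by -1.68 (0.000127) and *Ppargc1a*, the coactivator of mitochondrial genes, by -0.87 (0.00272). *Gatm*, the enzyme that starts creatine synthesis, was higher in eWAT, with a difference of 1.11 (0.00437). Other members of the list called toward eWAT were *Pm20d1* with 0.93 (0.000187), *Tmem26* with 0.58 (0.00775) and *Ebf2* with 0.38 (0.0128). *Tmem26* and *Ebf2* lost the call relative to the median gene with array medians made equal (0.0583 and 0.0775). *Ebf2* also lost it without the iWAT arrays of mice 1 and 2 (0.0610).

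Among 38 collagens and matrix genes, 16 were higher in eWAT, 2 were higher in iWAT and 20 were not called, with a median of 0.59. Of all genes 18.9% were called in each direction. The counts were 13 and 4 with a median of 0.25 without the iWAT arrays of mice 1 and 2, where 16.6% and 19.0% of all genes were called. Relative to the median gene with array medians made equal they were 23 and 0, with a median of 0.94. There 24.0% and 23.6% of all genes were called. In KO mice 7 were higher in eWAT and 5 in iWAT, with a median of -0.06, where 8.2% and 6.86% of all genes were called. *Col6a5*, a collagen VI chain, measured 6.40, 6.74, 6.40 and 6.65 in eWAT and 3.21, 2.92, 2.48 and 2.47 in iWAT, a difference of 3.78 (standard error 0.17, adjusted p = 6.32e-06). *Col14a1*, a fibril-associated collagen, differed by 3.03 (2.87e-05), *Timp1*, an inhibitor of matrix proteases, by 2.54 (0.00135) and *Fn1*, fibronectin, by 2.20 (6.32e-06). *Lox*, the collagen cross-linking enzyme, and *Dpt*, the matrix protein dermatopontin, were higher in iWAT by -0.86 (0.0303) and -0.75 (0.00143) on the difference scale, and both lost the call relative to the median gene with array medians made equal (0.143 and 0.0744). Of 24 progenitor genes, 8 were higher in eWAT and 6 in iWAT (18.9% of all genes were called in each direction). *Mgp*, an inhibitor of calcification made by stromal cells, differed by 2.24 (2.12e-05), *Pi16*, a marker of early progenitors, by 1.53 (0.00488) and *Pdgfra*, the receptor common to fat progenitors, by 0.90 (0.00992). *Fgf10*, a growth factor for preadipocytes, differed by -0.96 (0.00119).

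In the Wnt and BMP pathway (44 genes), 16 were higher in eWAT and 10 in iWAT (18.9% of all genes in each direction). *Wnt2b*, a Wnt ligand, measured 5.59, 5.10, 4.35 and 5.06 in eWAT and 2.79, 2.89, 3.05 and 2.81 in iWAT (2.14, adjusted p = 0.000209), and followed the order of mice seen for the mesothelial genes. The Wnt antagonists *Sfrp1* and *Sfrp2* differed by 1.88 (4.18e-05) and 1.35 (2.41e-05). *Bmp7*, a ligand that favours brown fat, differed by -1.26 (0.000172). Of 23 retinoid genes, 5 were higher in eWAT and 4 in iWAT, close to the 18.9% of all genes called in each direction, and the genes named here are the members with large differences. *Dhrs9*, a retinol dehydrogenase, measured 7.33, 7.29, 7.39 and 7.52 in eWAT and 3.00, 2.97, 3.02 and 4.58 in iWAT (3.99, standard error 0.33, adjusted p = 6.94e-05), with iWAT of mouse 4 again the highest of its depot. The retinaldehyde dehydrogenases *Aldh1a3* and *Aldh1a2*, which make retinoic acid, differed by 2.71 (8.71e-06) and 1.93 (0.000188). *Cyp26b1*, which degrades retinoic acid, was higher in iWAT, with 4.31, 4.70, 4.74 and 4.58 against 3.19, 3.26, 3.22 and 3.49 (-1.30, 8.05e-05). *Rnf128*, a ubiquitin ligase, and *Zranb3*, a DNA repair helicase, belong to none of these groups and were among the 10 largest differences toward eWAT, with 4.23 (1.56e-07) and 3.46 (1.54e-05).

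Of 27 hormone and metabolite receptors, 7 were higher in iWAT and 1 in eWAT, where 18.9% of all genes were called in each direction. Without the iWAT arrays of mice 1 and 2 the counts were 15 and 2, where 19.0% and 16.6% of all genes were called. *Adrb1*, the beta-1 adrenergic receptor, measured 3.44, 3.77, 4.22 and 4.36 in eWAT and 4.42, 4.82, 5.96 and 5.63 in iWAT (-1.26, adjusted p = 0.0194). *Ffar2*, a receptor for short-chain fatty acids, differed by -1.26 (0.00111) and *Adora1*, the antilipolytic adenosine receptor, by -0.88 (0.00314). Of 19 genes of branched-chain amino acid breakdown, 8 were higher in iWAT and 0 in eWAT, with a median of -0.33. The largest was *Mccc2*, a subunit of the carboxylase of leucine breakdown, with -0.93 (0.00241). Relative to the median gene with array medians made equal, 4 of these 19 were called in iWAT and 0 in eWAT, a share for iWAT below the 23.6% of all genes called in that direction.

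**Figure D5:**
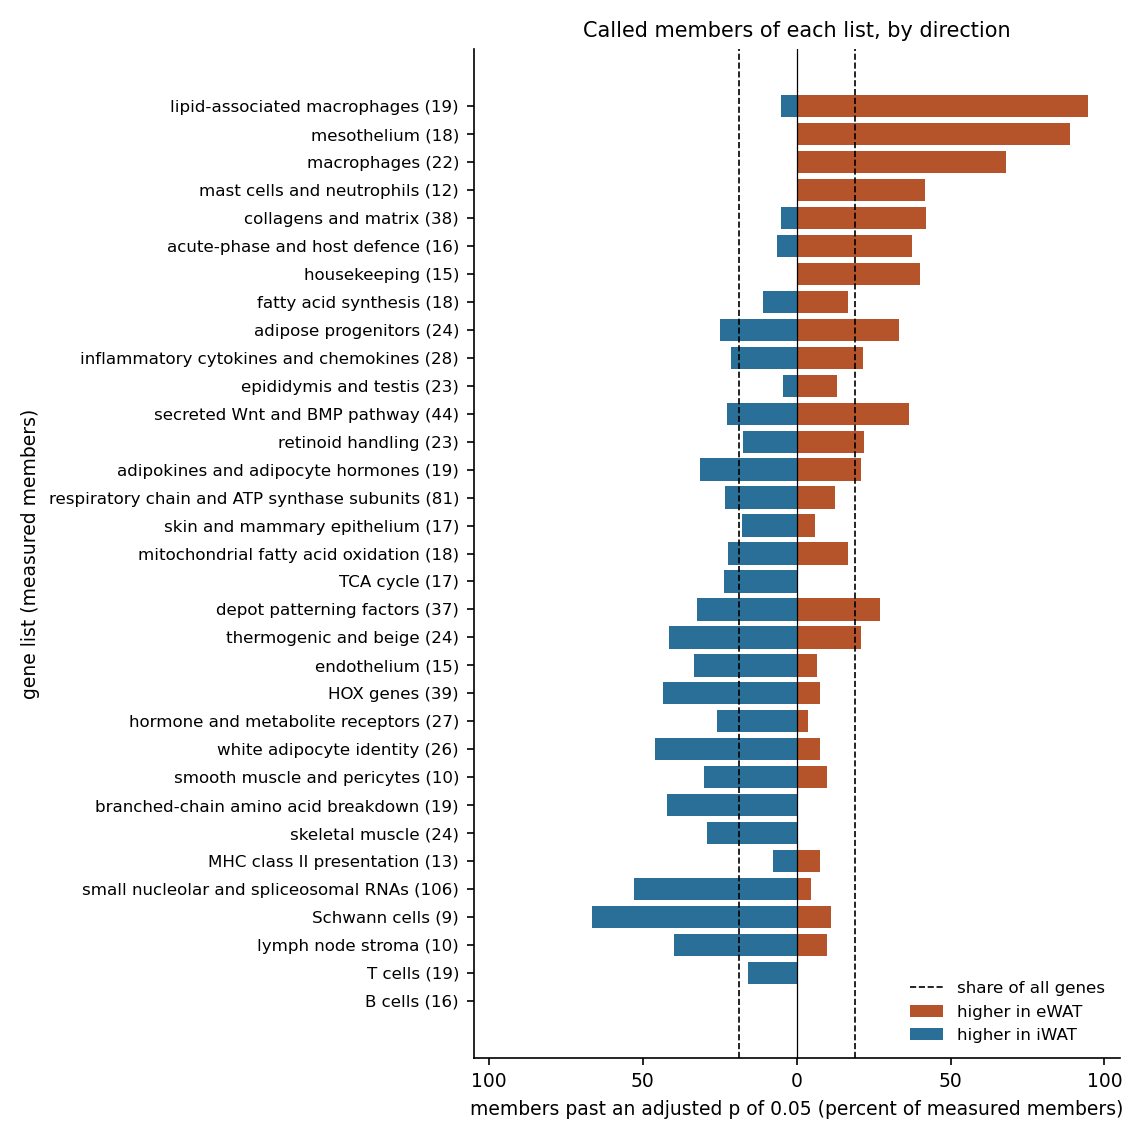
Percent of the measured members of each of 33 gene lists past an adjusted p of 0.05 (horizontal axis), to the right for higher in eWAT and to the left for higher in iWAT, with lists ordered by their median difference and the number of measured members in parentheses. Dashed lines mark the share of all genes, 18.9% in each direction. Lipid-associated macrophages, mesothelium and macrophages reach farthest toward eWAT, and Schwann cells and small nucleolar RNAs toward iWAT.

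The same depots of *Gpr146* KO littermates, 4 eWAT and 4 iWAT arrays that share none with the WT comparison, gave a second reading of the depot difference. These arrays were deposited in the same 2 tables, with medians of 3.13 to 3.17 in eWAT and 3.69 to 3.73 in iWAT. Depot and table therefore cannot be told apart in KO mice either, and an effect of the table on single genes would recur. *Gpr146* measured 4.77, 3.86, 4.28 and 4.51 in KO eWAT and 4.39, 3.54, 5.04 and 4.06 in KO iWAT, all below the lowest WT value of either depot, though the 2 genotypes were normalized apart. Some KO arrays carried lymphocyte genes too, with B cell means of 7.13 and 5.24 in iWAT of KO mice 2 and 4 and 4.29 in eWAT of KO mouse 3, against 3.12 to 3.32 on the others. In KO mice 3713 genes differed (15.1%), 2022 higher in eWAT (8.2%) and 1691 in iWAT (6.86%). Of the 9321 genes called in WT mice, 93.7% had the same sign in KO mice, compared with 69.5% of the genes not called. Of the 3713 genes called in KO mice, 79.1% were called with the same sign in WT mice, and 31.5% of the WT calls were called with the same sign in KO mice. The sign was opposite for 4 genes called in both.

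For lineage factors the values are given side by side. Of the 37 factors 4 were higher in KO eWAT and 8 in KO iWAT, against 10 and 12 in WT mice, and of the 39 HOX genes 2 and 8, against 3 and 17. For *Tbx15* the difference was -2.64 in WT and -2.60 (adjusted p = 0.000211) in KO mice, for *Hoxc10* -1.96 and -2.26 (0.000466), for *Shox2* -1.39 and -1.47 (0.00344), for *Wt1* 2.22 and 1.79 (0.000262) and for *Tcf21* 2.12 and 1.56 (0.00486). Smaller KO values stood against WT calls for *Bnc1*, with 1.66 and 0.78 (0.00739), *Osr1*, with 1.02 and 0.23 (0.531), and *Hoxc8*, with -0.69 and -0.06 (0.802). *Osr1* and *Hoxc8* did not pass the test in KO mice. Mesothelial genes were higher in KO eWAT in 14 of 18 cases, with a median of 1.02 against 1.81 in WT mice. Among lipid-associated macrophage genes 4 of 19 were called toward eWAT in KO mice, with a median of 0.85 against 2.15 in WT mice. *Trem2* differed by 1.08 (0.363) and *Gpnmb* by 1.39 (0.264) in KO mice, where neither passed the test. *Tm4sf19* measured 4.22, 7.59, 5.49 and 4.31 in KO eWAT and 2.90, 2.94, 3.57 and 3.05 in KO iWAT, with a wide spread in eWAT and a difference of 2.29 (0.0436). *Plin4* and *Cfd*, called toward iWAT in WT mice, were at -0.01 (0.969) and -0.39 (0.179) in KO mice. *Cidea* and *Tbx1* differed by -2.73 (0.00166) and -2.34 (0.000401). No difference between the genotypes in these depot values was tested.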

How the data were processed

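RNA of fat from 4 WT mice (eWAT and iWAT, 8 arrays) and of the same depots from 4 KO mice was measured on Affymetrix Mouse Gene 2.1 ST arrays, starting from 100 ng of RNA. Values deposited by the authors are on a log2 scale, with a table for each tissue, a line for each gene symbol and a column for each mouse. The software, the probe summary and the normalization are not given in the sources used here. For 840 genes the table's ID is a mean of several probe set IDs. Entries with a blank name or a name turned into a number were left out (1 in the eWAT table, 2 in the iWAT table). No detection call came with the values, so low levels may be background. The 16 arrays of liver and brown fat were not used here.

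The 8 WT arrays were quantile normalized together and the depots compared in limma 3.58.1 under R 4.3.3 with moderated variances and no block. Benjamini-Hochberg adjustment ran over 24646 genes, with a threshold of 0.05. KO arrays were handled apart in the same way. P-values measure the spread between mice. Same-numbered eWAT and iWAT arrays are taken to come from the same mouse, since the labels give them the same number without stating that it is shared across tissues. The correlations of their deviations from the group means were weak, at 0.037, 0.099, 0.119 and 0.060. Each was higher than with any other number, though for mouse 1 the next was 0.032. The alternatives were within-array ranks, medians made equal, deposited values, 16 arrays normalized together, dim genes left out, a trended and robust prior, array weights, the replicate block (mouse number), the t-test of the methods and each array left out. Leaving out both lymph node arrays, and differences relative to the median gene, were added after seeing the data.

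The members, the 33 lists (822 genes) and the tests were chosen with earlier results of these data known. Genes named are the 10 largest differences per direction whose groups do not overlap, up to 4 called members per direction of a list, and 18 lineage, adipocyte and macrophage genes, leaving out from the first group predicted, immunoglobulin, olfactory and small RNA genes. Some genes that meet this rule are not reported here. Other members were named for their role with their values known. On simulated data of 24646 genes, log2 differences of 0.5, 1, 2 and 3 were recovered in 48%, 82%, 98% and 100% of 50 genes each, with 11 false among 175 calls, and 0 calls where nothing was changed. The simulation changed few genes, in balanced directions, with the same independent spread in both depots. In these data 37.8% of genes were called and 2 iWAT arrays share lymph node genes, so the simulated rates need not hold here. Promoter windows are from RefSeq (GRCm38.p6), and 16 of 19 lipid-associated macrophage genes had one. Figures were drawn with matplotlib 3.10.9.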

Additional observations from a re-analysis of the deposited data

Results flagged for a closer look

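The value of each of 108 named genes and the mean of each list were checked in each depot. The check was for an array that lies far from the other 3 by Dixon's test at the 95% level. Of 282 such groups 21 held one, where chance alone gives about 1 in 20. All values are log2 levels after quantile normalization, with the nearest of the other arrays in parentheses.

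In iWAT, mouse 4 stood high for 5 genes, *Dhrs9* at 4.58 (3.02), *Ttn* at 4.95 (3.57), *Timp1* at 3.68 (2.72), *Aldh1a3* at 3.15 (2.60) and *Cxcl9* at 9.54 (9.18). All of them were called, *Ttn* and *Cxcl9* toward iWAT and the others toward eWAT, so this array enlarged the first 2 differences and reduced the others. iWAT of mouse 2 stood low for *Hoxc9* at 4.34 (5.05) and *Cfd* at 9.70 (10.53), and it is 1 of the 2 arrays rich in lymphocyte genes. The remaining iWAT values were *Lpl* at 8.80 (8.49), high in mouse 3, and the mean of the skin and mammary list at 2.66 (2.76), low in mouse 1.

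In eWAT, mouse 3 stood low for *Tcf21* at 3.91 (4.24) and *Ccl9* at 9.87 (10.10) and for the mean of the collagen and matrix list at 6.71 (7.11), and high for *Itgax* at 8.12 (7.81) and *Ppargc1a* at 4.11 (3.85). The array of mouse 1 stood low for *Saa3* at 3.36 (4.51) and *Dnase1l3* at 2.39 (2.62), and that of mouse 2 was low for *Itgam* at 7.72 (7.80) and high for *Ucp1* at 3.28 (2.85). Mouse 4 was high for *Ms4a4c* at 3.72 (3.53) and low for the means of the thermogenic list at 3.31 (3.42) and of the TCA cycle list at 7.35 (7.54). Leaving out each of these arrays changed no call of *Dhrs9*, *Ttn*, *Timp1*, *Aldh1a3*, *Cxcl9*, *Hoxc9*, *Cfd*, *Tcf21*, *Itgax* or *Saa3*.

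The mean of the endothelial list was lower in eWAT than in iWAT of the same-numbered mouse in all 4 WT mice (mean difference -0.20) and higher in all 4 KO mice (0.12). The difference between the genotypes was not tested.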

How the results depend on the processing

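The number of called genes depended most on how the separately scaled depot tables were joined. Making only the array medians equal gave 14305 calls in WT mice (11825 higher in eWAT, 2480 in iWAT), where the median gene lay 0.25 higher in eWAT, and 10534 in KO mice (9289 higher in eWAT). The deposited values gave 14801 (2392 and 12409), where the median gene lay at -0.27. Leaving out the dimmer genes gave 5443 (2716 and 2727), with fewer genes tested. Within-array ranks, normalization of 16 arrays together, the other prior, array weights, the t-test of the methods (11214 at their threshold, 8067 after Benjamini-Hochberg) and the 2 alternatives chosen after seeing the data left the WT count within 1.5 times of 9321. With the mouse number as a replicate block 8501 genes were called (4280 and 4221) in WT and 3242 in KO mice. Among 108 of the genes named the block changed no call other than those of *Ly6d* and *Cd4*. Leaving out each array in turn gave 7442 to 9403 calls in WT mice and 2222 to 3668 in KO mice (1256 to 1824 higher in eWAT, 947 to 1844 in iWAT), with the KO total moved by over 1.5 times without eWAT 1, 2 or 4 or iWAT 3 or 4. The cause was not tested.

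Of the 108 genes, 74 kept their direction and their side of the threshold under all 20 settings, and 91 did so with each array left out. Besides the genes given in the report, single arrays ended the calls of *Acp5*, *Ccl2*, *Cd4*, *Cd36*, *Lox*, *Adrb1*, *Osr1* and *Mlxipl* (adjusted p up to 0.0867, 0.0711, 0.0957, 0.0665, 0.0764, 0.0553, 0.0586 and 0.0641), and brought *Cd79a* past the threshold. The sign turned for *Hoxa5* with the deposited values (-0.22), for *Adipoq* with array medians made equal (0.25), for *Acp5* with array medians made equal (0.28, and 0.023 relative to the median gene), for *Lep* without both lymph node arrays (-0.0049) and between -0.049 and 0.084 with single arrays left out, and for *Gpr146* with array medians made equal (0.23), with array weights (0.042) and between -0.38 and 0.074 with single arrays left out. *Glycam1* turned to 0.47 without both lymph node arrays. Of 1320 list counts, 279 moved by over 1.5 times. With no detection call, differences among genes of low signal are limited by an unknown background.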

Other observations

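Many small structural RNAs were higher in iWAT. Of 106 small nucleolar and spliceosomal RNAs, which guide the modification of ribosomal RNA and the splicing of messenger RNA, 56 were higher in iWAT and 5 in eWAT, with a median of -0.47, where 18.9% of all genes were called in each direction. *Snora75* differed by -3.10 (0.000159), *Snora30* by -2.96 (6.40e-05) and the U3 RNA *Rnu3a* by -2.69 (0.000180). The counts were 43 and 12 without both lymph node arrays, and 4 and 2 in KO mice (15.1% of all genes called there), and the difference between the genotypes was not tested. Many of these RNAs have near-identical copies or lie in introns of other genes, so their array levels are uncertain. Of 15 housekeeping genes, 6 were higher in eWAT and 0 in iWAT (18.9% of all genes in each direction). The largest difference was that of *Gusb*, a lysosomal glucuronidase, with 2.12 (8.26e-06).

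Among the other cell types, 5 of 12 mast cell and neutrophil genes were higher in eWAT and 0 in iWAT (median 0.60), where 18.9% of all genes were called in each direction. Of 15 endothelial genes 1 was higher in eWAT and 5 in iWAT, with a median of -0.21 that turned to 0.08 relative to the median gene with array medians made equal. Smooth muscle and pericyte genes gave 1 and 3 of 10. Genes of epididymis and testis, which touch eWAT, gave 3 toward eWAT and 1 toward iWAT of 23, and those of skin and mammary epithelium, which lie near iWAT, 1 and 3 of 17. Both of these lists were dim, with median ranks at the 24.4th and 31.4th percentile in eWAT and the 17.9th and 32.1th in iWAT. Mitochondrial lists had no direction that held across scalings. Of all genes 18.9% were called in each direction. Relative to the median gene with array medians made equal, 24.0% were called toward eWAT and 23.6% toward iWAT. The TCA cycle gave 0 calls toward eWAT and 4 toward iWAT of 17 but 6 and 0 relative to the median gene, and the respiratory chain and ATP synthase 10 and 19 of 81 but 29 and 17. Mitochondrial fatty acid oxidation gave 3 and 4 of 18 but 8 and 1, and within it *Cpt1a*, which admits long-chain fatty acids to mitochondria, differed by 0.80 (0.000574).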
